A study of Mus musculus with 6 samples.

Results

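Lcn2, Pglyrp1, Saa3, Slpi, Wfdc2, Pigr, Cd14, Tlr2, Tlr4 and Nfkbiz are 10 genes of epithelial innate defence, and all 10 were among the 14738 genes that passed the filter on low counts, out of 56953 genes in the table. They were chosen by name with earlier results of these same 6 libraries known, so their differences between groups are given here as a description. Where calls among them are counted, the share of all genes called stands beside the count and nothing is drawn from it. RNA was sequenced in bulk from mouse pancreatic acini, the cell clusters that secrete digestive enzymes, explanted for 3 days under conditions in which they turn into duct-like structures (acinar-to-ductal metaplasia, ADM). The comparison addressed how loss of the secreted glycoprotein DKK3, and its return as recombinant protein, altered the transcriptome of these cultures.

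Wild-type acini (WT; labelled 10 and 11 weeks old), Dkk3-null acini (DD; 12 and 13 weeks) and Dkk3-null acini given soluble recombinant DKK3 (DD + rDKK3; 14 and 15 weeks) were each represented by 2 libraries. Group and labelled age cannot be told apart in this layout. Per the study's methods the null allele is present in every cell of the animal and lacks exon 2, which encodes the secretion signal. All groups were embedded in Matrigel and were cultured in serum-containing medium with trypsin inhibitor and 10 µg/ml dexamethasone, a glucocorticoid, so no group shows these genes without glucocorticoid. Each library carries its own labelled age, which taken at face value makes the libraries of a group separate animals. These ages rise evenly from library to library, however, and no animal is named. The p-values therefore measure only the spread between these libraries, which may be technical. In bulk RNA, fewer cells of a type and less RNA per cell cannot be told apart.

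The surfaces of ducts and other mucosae are guarded by a small set of receptors and secreted proteins. Toll-like receptors and their co-receptor CD14 recognise microbial lipoproteins and lipopolysaccharide and signal through MyD88 to NF-κB, with the nuclear protein IκBζ (Nfkbiz) acting on a subset of late NF-κB targets such as Lcn2. The effectors bind bacterial cell wall (PGLYRP1), capture iron-loaded siderophores (lipocalin-2), inhibit proteases of leukocytes and microbes (SLPI and other whey acidic protein domain proteins) or carry IgA across the epithelium (the polymeric immunoglobulin receptor). In secretory tissues several of these genes are also targets of STAT3 and C/EBP factors downstream of cytokines of the IL-6, IL-17 and IL-22 families.

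Library totals ranged from 12018473 to 19750401 counts. Dkk3 itself had between 1 and 11 counts per library (WT, 10 and 1, DD, 11 and 9, DD + rDKK3, 5 and 5), and because a gene-level count does not show exon 2, it checks nothing about the genotype labels. WT 2 is labelled female, yet its summed Y-linked level of 141.4 CPM (the usual unit of counts scaled to library depth, here with TMM factors) lay inside the range of the 6 libraries, 118.7 to 146.7 CPM, with 16 Xist counts there and 0 in the others. DD 2 and DD + rDKK3 2 stood apart on the first principal component (42.3% of the variance; scores 41.48 and 42.04 against -37.34 to -7.78) and WT 1 on the second (score 52.77). The same 2 Dkk3-null libraries had summed levels of 10 fibroblast and stellate markers, led by Col1a1, of 824.8 and 912.7 CPM, against 52.96 to 172.8 CPM in the other 4. Values without WT 2, without DD 2 and without DD + rDKK3 2 are therefore given with the results. Acinar markers, led by Ctrb1, summed to between 90510 and 156200 CPM, ductal markers, led by Spp1, to between 1479 and 2460 CPM, and endothelial markers, led by Plvap, to between 118.5 and 196.2 CPM. The cultures thus held abundant transcripts of the labelled cell type with ductal, endothelial and mesenchymal markers beside them.

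The 10 genes differed widely in abundance. Per kilobase of the canonical transcript, mean levels over the 6 libraries ran from 5108 CPM for Lcn2 through 58.12 for Slpi, 55.37 for Cd14, 27.36 for Pigr, 26.81 for Wfdc2, 13.29 for Pglyrp1, 11.88 for Saa3, 5.04 for Nfkbiz and 2.21 for Tlr2 to 1.12 for Tlr4. Lcn2 stood alone at the top of this order, while the ranges over libraries of every other pair of neighbours overlapped. By CPM without regard to length, Lcn2 ranked 17 among the 14738 genes tested. Of all counts, Lcn2 transcripts took 0.475% and 0.477% in the WT libraries, 0.363% and 0.390% in the DD libraries and 0.503% and 0.577% in the treated DD + rDKK3 libraries. Exact 95% binomial intervals of these shares were at most as wide as 0.471% to 0.479% (WT 1), counting error only.

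**Figure D1:**
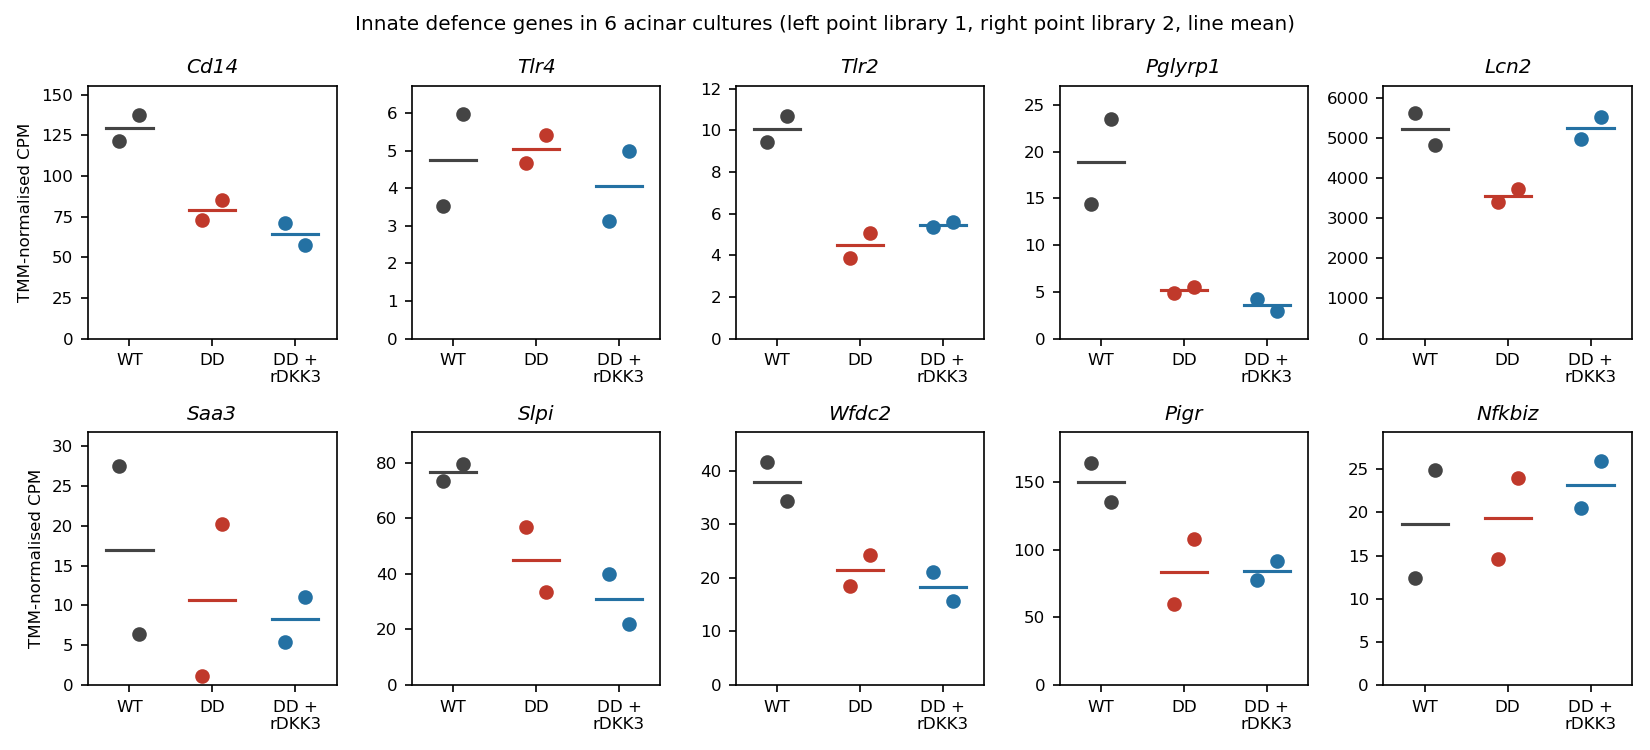
TMM-normalised CPM of the 10 innate defence genes (linear axis from 0, its own scale for each gene) in WT, DD and DD + rDKK3. Each point is 1 library and each line the mean of 2. Cd14, Tlr2, Pglyrp1, Lcn2, Slpi, Wfdc2 and Pigr show both DD points below both WT points, while the Tlr4, Saa3 and Nfkbiz groups overlap, and of the 7 only Lcn2 has its DD + rDKK3 points at the WT level.

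Among the pattern recognition genes, Cd14 and Tlr2 were lower in the Dkk3-null cultures and Tlr4 was not. Cd14 (chromosome 18, 36858120 to 36859851, GRCm39, minus strand), the lipopolysaccharide co-receptor, measured 121.4 and 137.2 CPM in WT, 72.79 and 85.42 in DD cultures and 70.82 and 57.55 in DD + rDKK3. Every Dkk3-null library lay below both WT libraries, and both treated libraries lay below both untreated DD libraries. The log2 fold change from edgeR was -0.71 ± 0.18 (SE) for DD against WT, a 1.64-fold lower level, and -1.01 ± 0.18 for DD + rDKK3 against WT. For the step from DD to DD + rDKK3 it was -0.30 ± 0.18.

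Tlr2 (chromosome 3, 83743579 to 83749074, minus strand), the receptor for bacterial lipoproteins, measured 9.43 and 10.68 CPM in WT, 3.88 and 5.06 in DD cultures and 5.33 and 5.59 in DD + rDKK3. The WT libraries were the highest of the 6, and the treated libraries sat just above the untreated null libraries. Its log2 fold change was -1.17 ± 0.23 for DD against WT and -0.88 ± 0.23 for DD + rDKK3 against WT, and it was 0.29 ± 0.23 between the treated and untreated null cultures. These are low counts, between 82 and 152 per library.

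Tlr4 (chromosome 4, 66745821 to 66848521, plus strand), the signalling receptor for lipopolysaccharide, measured 3.54 and 5.97 CPM in WT, 4.69 and 5.41 in DD cultures and 3.12 and 5.0 in DD + rDKK3. The 3 groups overlapped, and the DD level differed from WT by 0.07 ± 0.35 on the log2 scale. Between 36 and 99 Tlr4 counts stood behind each value, and a lncRNA that overlaps the gene on the same strand held 59 counts in all 6 libraries together beside 464 of Tlr4. The difference between DD + rDKK3 and DD was -0.31 ± 0.35. With these standard errors a change of the size of that in Cd14 was at the limit of what could be seen for Tlr4.

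Pglyrp1 had the largest difference of the 10. The gene (chromosome 7, 18605256 to 18624384, plus strand) encodes peptidoglycan recognition protein 1, a secreted bactericidal protein. It measured 14.34 and 23.53 CPM in WT, 4.83 and 5.47 in DD cultures and 4.28 and 2.90 in DD + rDKK3. WT 2 was the highest library and DD + rDKK3 2 the lowest, 8.10-fold apart, and the 3 groups were ordered with no overlap. The DD level was 3.69-fold lower than WT (log2 fold change -1.88 ± 0.30) and the DD + rDKK3 level 5.28-fold lower (-2.40 ± 0.31), with -0.52 ± 0.31 between DD + rDKK3 and DD.

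Promoter windows (RefSeq, GRCm38.p6, 250 bases before to 50 after the transcript start) were given for 7 of the members. Among these 7, Tlr2 and Pglyrp1 alone held a match to the 10-base NF-κB (κB) consensus on either strand. They were also the genes with the largest differences between DD and WT, and any link was not tested. The stretches around these matches are shown 5′ to 3′ along the gene's own strand with the match in capitals. Their positions in GRCm39 come from the exact match of the whole window to that build.
Pglyrp1, chr7:18618512-18618541, plus strand: ggtctgggtcGGAAAGTCCCgcccaggtgt
Tlr2, chr3:83749068-83749097, minus strand: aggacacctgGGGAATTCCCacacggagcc

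The Pglyrp1 match starts 93 bases before the RefSeq start and reads as the consensus on the opposite strand. The Tlr2 match starts 172 bases before the start and reads as the consensus on both strands, it overlaps a match that starts at base 173, and a further match starts 8 bases before the start. In GENCODE M39 the Pglyrp1 stretch touches an exon of 1 transcript and the Tlr2 stretch exons of 4, so each can lie within transcribed sequence. The gene and strand of these transcripts were not checked. Windows were given for 7 of the 10 genes (Pglyrp1, Lcn2, Saa3, Slpi, Pigr, Tlr2 and Wfdc2). Of 32544 distinct promoter windows of the same length, 4.53% held a κB match, and of the 7 genes 2 did. A match is a description of the letters in the window and not evidence of binding.

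Lcn2, by far the most abundant of the 10, was lower in DD and, with TMM scaling, at the WT level in the cultures given the protein. The gene (chromosome 2, 32274645 to 32278264, minus strand) encodes lipocalin-2, which sequesters bacterial siderophores and is a widely used sign of epithelial injury. It measured 5610 and 4826 CPM in WT, 3396 and 3724 in DD cultures and 4966 and 5522 in DD + rDKK3. Both DD libraries lay below all the others, and the WT and DD + rDKK3 libraries overlapped. On the log2 scale the difference was -0.55 ± 0.19 for DD against WT, 0.56 ± 0.19 for DD + rDKK3 against DD and 0.01 ± 0.19 for DD + rDKK3 against WT. The first and the second of these share the DD libraries, so they are not independent. Scaled by library size alone, Lcn2 was at -0.34 for DD against WT and 0.52 for DD + rDKK3 against DD. Over the alternative fits of all libraries, DD + rDKK3 against WT ranged from -0.0033 to 0.18. As shares of all counts, both treated libraries lay above both WT libraries, so the match to the WT level depended on the scaling.

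Saa3 (chromosome 7, 46361422 to 46365124, minus strand), an acute-phase serum amyloid A protein made outside the liver, measured 27.51 and 6.46 CPM in WT, 1.09 and 20.28 in DD cultures and 5.44 and 11.03 in DD + rDKK3. The 2 libraries of a group differed by 4.26-fold in WT, 18.6-fold in DD and 2.03-fold in DD + rDKK3, and all 3 groups overlapped. The log2 fold change for DD against WT was -0.67 ± 1.08. It was -1.38 without WT 2, -3.94 without DD 2 and 0.73 without WT 1, so no direction can be read for Saa3.

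The 3 libraries highest in Saa3 (WT 1, DD 2 and DD + rDKK3 2) were also the 3 highest in the summed macrophage markers (146.3, 273.8 and 211.7 CPM, against 59.84 to 90.31 in the others; all 12 markers passed the filter) and in the summed neutrophil markers (35.86, 22.40 and 13.12 CPM, against 5.49 to 7.76). Most of the neutrophil sum was Mmp8, a collagenase, which measured 34.09 and 3.93 CPM in WT, 4.73 and 20.52 in DD cultures and 6.60 and 12.16 in DD + rDKK3. Without Mmp8 the sum was 1.77 and 2.39 CPM in WT, 0.757 and 1.88 in DD cultures and 1.16 and 0.968 in DD + rDKK3. It was highest in WT 2, and its 3 highest libraries were no longer those of Saa3. Of the 12 neutrophil markers 2 (Mmp8 and Ltf) passed the filter and 7 had no more than 3 counts in any library, among them Elane and Retnlg with 0 counts in all 6. Pglyrp1 and Lcn2 are also neutrophil granule genes. Ltf (23 counts, 1.62 CPM), S100a8 (9 counts, 0.632 CPM) and Ly6g (1 count) were highest in WT 2, the library in which Pglyrp1 was highest. Other markers of the list went the other way. Mmp8 was lowest in WT 2, and S100a9, Csf3r, Ngp, Camp and Mpo had 0 counts there. The part of neutrophil or macrophage transcripts in the values of Saa3, Pglyrp1 and Lcn2 was not tested.

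**Figure D2:**
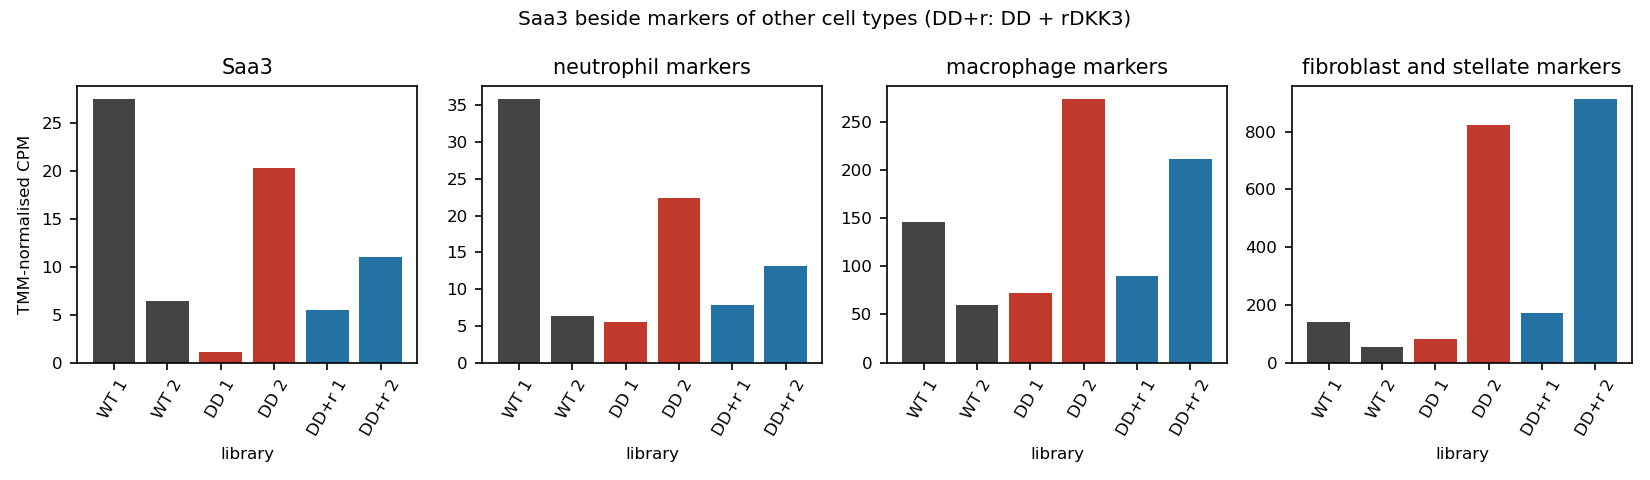
TMM-normalised CPM of Saa3 and of 3 summed marker lists by library (bars from 0, each panel on its own linear scale). WT 1, DD 2 and DD + rDKK3 2 are the 3 highest bars for Saa3 and for the neutrophil and macrophage lists, whereas the fibroblast and stellate sum is high in DD 2 and DD + rDKK3 2 and not in WT 1.

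Slpi and Wfdc2, which carry whey acidic protein domains and lie on the same chromosome, were lower in all the Dkk3-null libraries. Slpi (chromosome 2, 164195990 to 164231015, minus strand), secretory leukocyte protease inhibitor, measured 73.58 and 79.72 CPM in WT, 56.74 and 33.57 in DD cultures and 40.09 and 21.78 in DD + rDKK3. Both WT libraries were above the others, and the null groups overlapped. Its log2 fold change was -0.76 ± 0.32 for DD against WT, -1.31 ± 0.33 for DD + rDKK3 against WT and -0.55 ± 0.32 for DD + rDKK3 against DD. Within each null group the library with the high fibroblast marker sum, DD 2 or DD + rDKK3 2, had the lower Slpi level, and the part of those cells was not tested. Without DD 2 the log2 fold change of DD against WT was -0.43, and without DD 1 it was -1.17. Without DD + rDKK3 2 that of DD + rDKK3 against WT was -0.93.

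Wfdc2 (chromosome 2, 164404333 to 164410430, plus strand), a secreted epithelial protease inhibitor-like protein, measured 41.56 and 34.28 CPM in WT, 18.55 and 24.28 in DD cultures and 21.02 and 15.70 in DD + rDKK3. Its groups were arranged as those of Slpi, with the WT libraries on top and the null groups overlapping. On the log2 scale it differed by -0.82 ± 0.21 for DD against WT and by -1.04 ± 0.22 for DD + rDKK3 against WT. Between DD + rDKK3 and DD it was -0.22 ± 0.21, about the size of its standard error.

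Pigr (chromosome 1, 130754421 to 130779986, plus strand), which transports dimeric IgA through the epithelial cell, measured 164.3 and 135.4 CPM in WT, 59.63 and 107.5 in DD cultures and 77.32 and 91.59 in DD + rDKK3. The WT libraries were the highest, and the treated libraries lay between the 2 DD libraries. The log2 fold change was -0.84 ± 0.28 for DD against WT, 0.02 ± 0.28 for DD + rDKK3 against DD and -0.83 ± 0.28 for DD + rDKK3 against WT. Because the DD libraries were far apart, the first value moved to -0.45 without DD 1 and to -1.33 without DD 2.

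Nfkbiz (chromosome 16, 55631738 to 55659262, minus strand), the nuclear IκB protein that acts on late NF-κB targets, measured 12.38 and 24.87 CPM in WT, 14.62 and 24.04 in DD cultures and 20.54 and 25.92 in DD + rDKK3. The groups overlapped, with the spread inside WT and inside DD wider than any difference between group means. Its log2 fold change was 0.04 ± 0.36 for DD against WT, 0.27 ± 0.35 for DD + rDKK3 against DD and 0.31 ± 0.35 for DD + rDKK3 against WT. Leaving out single libraries moved the DD against WT value between -0.36 and 0.64. Across the 6 libraries the levels of Nfkbiz were not ordered as those of Lcn2, a known target of IκBζ. With these standard errors a change of the size of that in Lcn2 could not be seen reliably for Nfkbiz. Any part of IκBζ in the Lcn2 levels was not tested.

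Matches to the C/EBP motif TTGCNNAA, searched on both strands, were held by the windows of Lcn2, Saa3 and Slpi, 3 of the 7 genes, against 10.8% of all 32544 windows. The stretches are shown because these 3 genes, alike in this motif, had unlike patterns in the cultures.
Lcn2, chr2:32277950-32277977, minus strand: gcccttcctgTTGCTCAAccttgcacag
Saa3, chr7:46365182-46365209, minus strand: gtaagtgggaTTATGCAAgatcaaacag
Slpi, chr2:164198651-164198677, minus strand: gaatttgtaTTGAGCAAtaggttagag

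Capitals again mark the match, which starts 216 bases before the RefSeq start in Lcn2, 99 in Saa3 and 241 in Slpi. In Saa3 and Slpi the motif reads along the opposite strand. The Lcn2 stretch touches an exon of 1 transcript in GENCODE M39 and the Saa3 stretch exons of 5, again of any gene or strand. No κB match overlapped any of the 3. A match to the STAT motif TTCNNNGAA, the same on both strands, was present in 8.33% of all windows and in that of Pigr alone among the 7, where it starts 39 bases after the start. With TMM scaling Lcn2 was at the WT level in the treated cultures, Slpi was not, and Saa3 had no direction.

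Read over all 10 genes, the DD against WT difference had a median log2 fold change of -0.74 (range -1.88 to 0.07), beside 0.016 for all genes tested, and it was below 0 for 8 genes. Among all genes tested 48.3% were below 0. In 7 of the 10 genes (Pglyrp1, Cd14, Lcn2, Slpi, Pigr, Tlr2 and Wfdc2) both DD libraries lay below both WT libraries, as did 19.7% of all genes, and in 0 of the 10 both lay above, as did 18.1% of all genes. The members were chosen with these values known, so the counts describe the choice as much as the cultures.

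At an adjusted p under 0.05 by edgeR's quasi-likelihood test with Benjamini-Hochberg adjustment, 0 of the 10 genes were called between DD and WT, where 0.0407% of all genes (6) were. At an unadjusted p under 0.05 the number was 7, the same 7 as above, where 8.26% of all genes passed. DESeq2 called 3 (Pglyrp1, Cd14 and Tlr2; 0.543% of all genes) and limma-voom called 0 (0.0543% of all genes). An exact permutation test of 2 libraries against 2 cannot give a p below 0.333, so no test of that kind was run on any gene.

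Addition of the protein did not move the genes together. The median difference between DD + rDKK3 and DD was -0.26, beside -0.0028 for all genes tested, with 6 of the 10 below 0 and 50.5% of all genes below 0. In 2 genes (Lcn2 and Tlr2) both treated libraries lay above both DD libraries, as for 15.1% of all genes, and in 2 (Pglyrp1 and Cd14) both lay below, as for 14.4% of all genes. These shares are close to the background, and the directions of the 4 genes were split evenly.

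By edgeR 0 of the 10 genes were called between DD + rDKK3 and DD, where 0% of all genes were. At an unadjusted p under 0.05 only Lcn2 passed, 1 of the 10, where 1.98% of all genes did. DESeq2 and limma-voom called 0 of the 10 each, where they called 0.0339% and 0% of all genes. The median was 0.24 without DD 2, 0.0048 without DD + rDKK3 1 and -0.40 without DD 1, so its sign rested on single libraries. With DD + rDKK3 2 left out, the differences from DD were smaller for Pglyrp1 (-0.27), Cd14 (-0.17), Slpi (-0.18) and Wfdc2 (-0.04). They were also smaller for Lcn2 (0.47), Tlr2 (0.25) and Nfkbiz (0.08). Tlr4 (-0.70), Saa3 (-0.98) and Pigr (-0.12) moved down.

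Against WT, the treated cultures had a median of -0.95 over the 10 genes, beside 0.017 for all genes tested, with 8 of the 10 below 0 (48.4% of all genes). In 6 genes (Pglyrp1, Cd14, Slpi, Pigr, Tlr2 and Wfdc2) both DD + rDKK3 libraries lay below both WT libraries, as for 27.1% of all genes, and in 0 both lay above, as for 27.9%. By edgeR 0 of the 10 were called (0.0475% of all genes), and the same 6 passed an unadjusted p under 0.05 (15.3% of all genes). DESeq2 called Cd14 and Slpi (0.502% of all genes) and gave no adjusted p for Pglyrp1, Saa3, Tlr2, Tlr4, Nfkbiz and Wfdc2. Genes without an adjusted p could not be called yet count among all genes, so this share is not like for like with the members' count. For limma-voom 0 were called (0.0204% of all genes). This comparison shares its WT libraries with DD against WT and its treated libraries with DD + rDKK3 against DD, so the 3 sets of values are not independent.

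**Figure D3:**
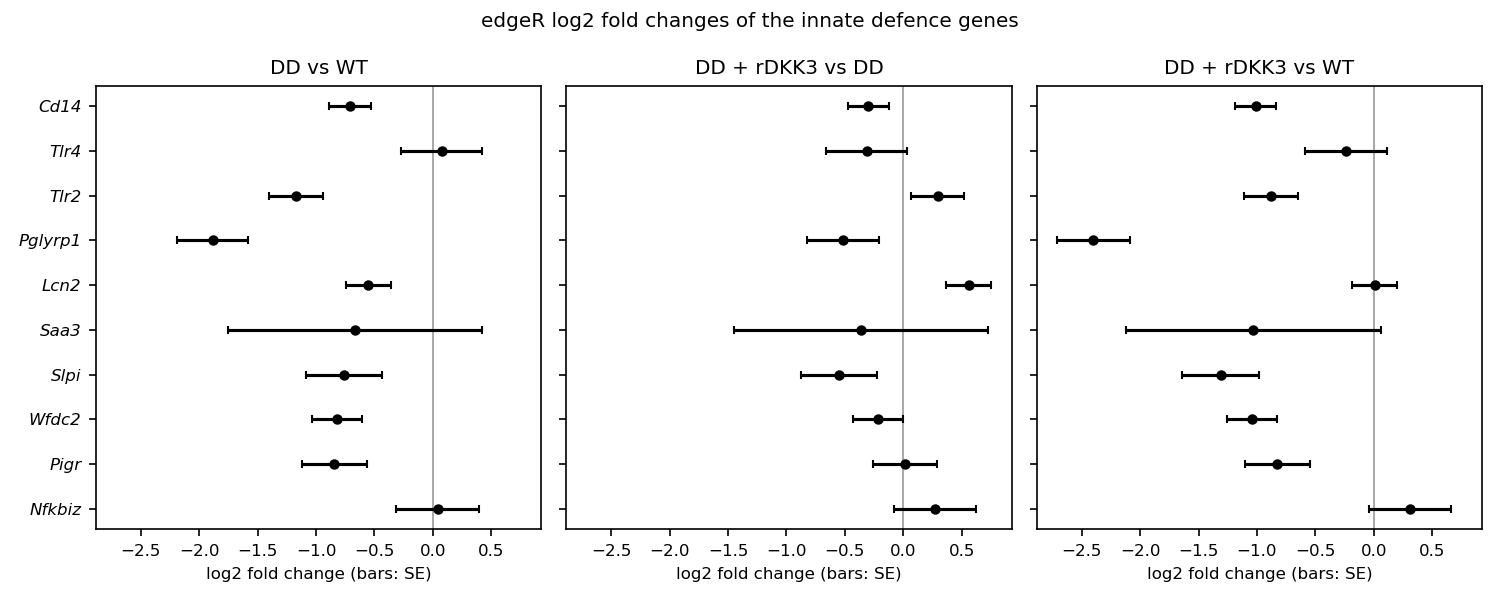
edgeR log2 fold changes of the 10 genes (points) with their standard errors (bars) in the 3 comparisons, on a common horizontal axis. Pglyrp1 lies farthest below 0 in both comparisons with WT (-1.88 and -2.40), Lcn2 is below 0 in DD vs WT, above 0 in DD + rDKK3 vs DD and at 0.01 in DD + rDKK3 vs WT, and Saa3 has the widest bars.

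Left out in turn, the WT and DD libraries changed the sign of the DD against WT difference in 3 of the 10 genes, Saa3, Tlr4 and Nfkbiz. Without WT 2, the library whose Y-linked level goes against its label, the log2 fold changes were -1.48 for Pglyrp1, -0.62 for Cd14, -0.66 for Lcn2, -0.70 for Slpi, -0.98 for Pigr, -1.08 for Tlr2 and -0.96 for Wfdc2. They were 0.51 for Tlr4 and 0.64 for Nfkbiz, up from 0.07 and 0.04. Without DD 2, which had the high fibroblast marker sum, they were -1.98 for Pglyrp1, -0.83 for Cd14, -0.62 for Lcn2, -1.37 for Tlr2 and -1.03 for Wfdc2. For these 5 genes, and for Pigr at -1.33, the difference was larger without DD 2 than with it, and for Slpi at -0.43 it was smaller. Without DD 1 the reverse held. The values were then -1.77 for Pglyrp1, -0.57 for Cd14, -0.46 for Lcn2, -0.97 for Tlr2 and -0.61 for Wfdc2. Pigr was at -0.45 and Slpi at -1.17. The part of mesenchymal transcripts in these values was not tested.

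**Figure D4:**
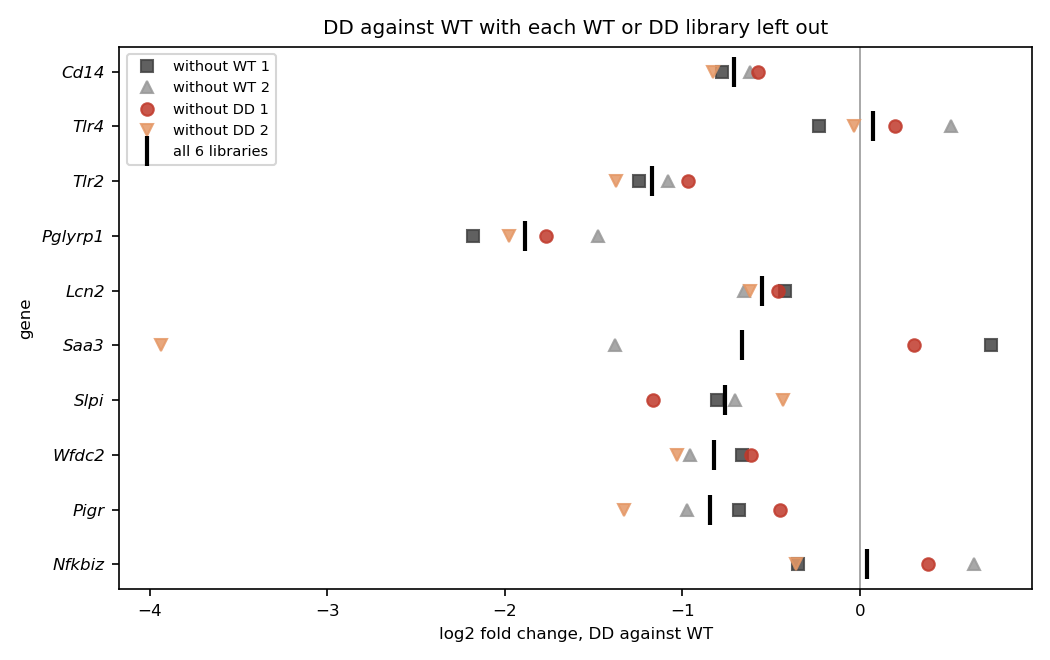
Log2 fold change of DD against WT for the 10 genes with all 6 libraries (vertical bars) and with WT 1, WT 2, DD 1 or DD 2 left out (symbols). For Cd14, Tlr2, Pglyrp1, Lcn2, Slpi, Wfdc2 and Pigr every symbol is below 0, and for Tlr4, Saa3 and Nfkbiz the symbols lie on both sides, with Saa3 spread from -3.94 to 0.73.

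Macrophages also express Cd14, Tlr2, Tlr4 and Slpi. The summed level of the 12 macrophage markers, led by the lysozyme gene Lyz2, was 146.3 and 59.84 CPM in WT, 72.41 and 273.8 in DD cultures and 90.31 and 211.7 in DD + rDKK3. Across groups, Cd14 and Tlr2 were lower in DD 2, where the macrophage sum was highest, than in WT 2, where it was lowest. Within DD they were higher in DD 2 (85.42 and 5.06 CPM) than in DD 1 (72.79 and 3.88 CPM), as was Tlr4, while Slpi was lower. Within DD + rDKK3 the library with the higher macrophage sum, DD + rDKK3 2, was higher in Tlr2 and Tlr4 and lower in Cd14 and Slpi. Within WT the library with the higher sum, WT 1, was lower in all 4. The part of macrophage transcripts in these genes was not tested. The median log2 fold change of the 12 acinar markers was -0.29 for DD against WT, and the part of acinar content in the differences was not tested.

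Centred on each gene's mean over the 6 libraries, the 10 genes averaged 0.53 and 0.54 log2 units in WT, -0.58 and 0.055 in DD cultures and -0.29 and -0.25 in DD + rDKK3. WT 1 and WT 2 held the highest level of 4 and 5 genes, and DD 1 and DD + rDKK3 2 each held the lowest of 4. In this mean the 2 DD libraries were further apart than the pairs of the other groups. Much of that gap was Saa3, for which no direction can be read. Saa3 was 18.6-fold apart between DD 1 and DD 2, and the next widest gene there, Pigr, was 1.8-fold apart. The DD 2 mean above 0 also rested on Saa3. Whether the DD pair is the widest without Saa3 was not tested. The most alike profiles among the 10 were those of Cd14 and Wfdc2, with a root mean square difference of 0.15 log2 units over the 6 libraries, then Pigr and Tlr2 with 0.23. Tlr4 and Nfkbiz, the genes with no lower level in DD, differed from each other by 0.35.

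**Figure D5:**
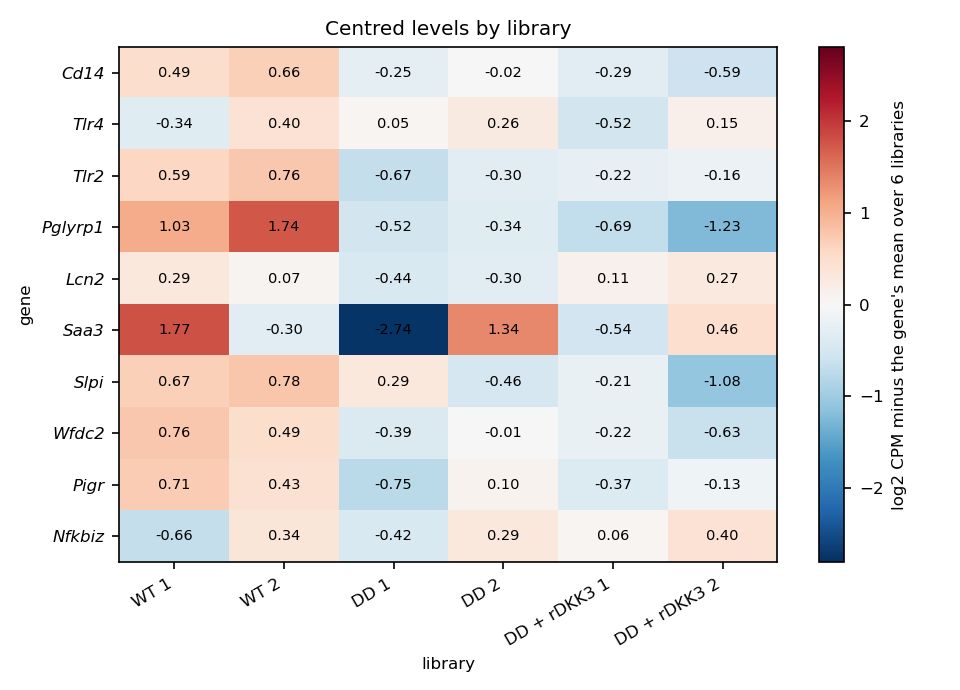
Log2 CPM of each gene minus its mean over the 6 libraries, by gene and library (colour scale in log2 units, values printed in the cells). The WT columns are mostly above 0 and DD 1 mostly below, the Saa3 row runs from -2.74 in DD 1 to 1.77 in WT 1, and the Lcn2 row is below 0 in the DD columns alone.

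By the same measure over 14737 other genes, the profiles closest to Pglyrp1 were those of Tnfrsf9, a receptor of the tumour necrosis factor family, at 0.36, the lymphotoxin gene Ltb at 0.37 and Trim46 at 0.37, where the median gene stood at 1.07. Tnfrsf9 lay between 0.16 CPM in DD + rDKK3 2 and 1.97 CPM in WT 1, so its profile rests on few counts. Ltb measured 3.63 and 6.25 CPM in WT, 1.37 and 2.06 in DD cultures and 1.32 and 1.56 in DD + rDKK3. Ltb was picked for its close profile, so its likeness to Pglyrp1 follows from the choice. Its WT libraries were also the highest, at a lower level, but its DD and DD + rDKK3 libraries overlapped. The profiles closest to Tlr2 were those of the p38 kinase kinase Map2k6, Mrnip and Fam181b, each at 0.14, where the median gene stood at 0.56. Map2k6 measured 1.97 and 2.53 CPM in WT, 0.757 and 1.06 in DD cultures and 1.16 and 0.914 in DD + rDKK3, which are low levels.

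Of 24 further Toll-like receptors, co-receptors and adaptors, 18 were tested, and their median log2 fold change was 0.05 for DD against WT, 0.03 for the treated against the untreated null cultures and 0.07 for the treated cultures against WT. By edgeR's quasi-likelihood test with Benjamini-Hochberg adjustment 0 of the 18 were called in any comparison, with 0 by DESeq2 and 0 by limma-voom, and without the filter on low counts edgeR called 2 for DD + rDKK3 against WT. At an unadjusted p under 0.05, 1 gene was higher and 0 were lower in DD than in WT, where 4.27% of all genes were higher and 3.99% lower, 0 differed between DD + rDKK3 and DD, and 1 was higher and 1 lower in DD + rDKK3 than in WT (7.34% and 8% of all genes). The higher gene was Tirap in both comparisons with WT. It is the adaptor that links TLR2 and TLR4 to MyD88, and it measured 7.37 and 8.15 CPM in WT, 12.54 and 10.46 in DD cultures and 11.78 and 12.91 in DD + rDKK3. Its log2 fold change was 0.57 ± 0.20 for DD against WT (edgeR adjusted p = 0.586) and 0.67 ± 0.20 for DD + rDKK3 against WT (adjusted p = 0.321). The lower gene was Cd36, a scavenger receptor and TLR2 co-receptor, at 59.34 and 111.5 CPM in WT, 63.70 and 82.36 in DD cultures and 53.77 and 37.65 in DD + rDKK3. Its log2 fold change was -0.905 ± 0.32 for DD + rDKK3 against WT (edgeR adjusted p = 0.321) and -0.68 ± 0.31 for DD + rDKK3 against DD, the smallest p of the list there (adjusted p = 1). The gene of the lipopolysaccharide-binding protein, Lbp, chosen with its values known, was at -0.80 ± 0.42 for DD against WT (edgeR adjusted p = 0.586) with overlapping groups.

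All 20 NF-κB subunits, kinases and inhibitors were tested, with medians of 0.05 for DD against WT, 0.11 between the treated and untreated null cultures and 0.19 between the treated cultures and WT, and edgeR, DESeq2 and limma-voom each called 0 in every comparison. For DD against WT, 6 of the 20 were below 0 (48.3% of all genes), and the median was 0.28 without WT 2. At an unadjusted p under 0.05, 0 genes passed in the comparisons of DD with WT and of DD + rDKK3 with DD (8.26% and 1.98% of all genes), and 1 passed, higher, in that of DD + rDKK3 with WT (7.34% of all genes higher). This was Nfkb2, the precursor of the p52 subunit, at 35.56 and 34.70 CPM in WT, 39 and 37.57 in DD cultures and 41.41 and 48.35 in DD + rDKK3, with a log2 fold change of 0.35 ± 0.14 for DD + rDKK3 against WT (edgeR adjusted p = 0.321) and 0.23 ± 0.14 for DD + rDKK3 against DD (adjusted p = 1). Tab2, an adaptor of the TAK1 kinase, had the smallest p for DD against WT, at 0.30 ± 0.15 (edgeR adjusted p = 0.586). Relb, the partner of p52, named after its values were seen, had both DD libraries below both WT libraries, at -0.21 ± 0.16 (adjusted p = 0.64 by edgeR).

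Of 24 cytokines, cytokine receptors and their STAT3 and C/EBP factors, 21 were tested. Their medians were 0.13, -0.09 and 0.04 in the same order of comparisons, and edgeR, DESeq2 and limma-voom again called 0, while without the filter on low counts edgeR called 4 in the last. At an unadjusted p under 0.05, 0 genes differed between DD and WT (8.26% of all genes), 2 were lower in DD + rDKK3 than in DD (1.38% of all genes), and 2 were higher and 1 lower in DD + rDKK3 than in WT (7.34% and 8% of all genes). Without DD 2 the median for DD + rDKK3 against DD was 0.11. Il1rn, the interleukin-1 receptor antagonist, measured 31.04 and 29.64 CPM in WT, 29.25 and 26.34 in DD cultures and 20.12 and 17.00 in DD + rDKK3. Both treated libraries lay below the other 4, at -0.58 ± 0.16 against DD (edgeR adjusted p = 1) and -0.71 ± 0.16 against WT (adjusted p = 0.321). Il6ra, the interleukin-6 receptor, was at 0.51 ± 0.26 for DD against WT (edgeR adjusted p = 0.586). It was at 0.98 without WT 2 and at 0.19 without WT 1.

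Of 38 other secreted defence and acute-phase proteins 20 were tested, and their median log2 fold change was -0.46 for DD against WT, with 15 of the 20 below 0 (48.3% of all genes), -0.08 for DD + rDKK3 against DD and -0.46 for DD + rDKK3 against WT. By edgeR's quasi-likelihood test with Benjamini-Hochberg adjustment 0 of the 20 were called in any comparison. DESeq2 called 0, 0 and 1 in the same order and limma-voom 0, and without the filter on low counts edgeR called 5, 0 and 4. The median for DD against WT was -0.22 without WT 2 and -0.77 without DD 2, that for DD + rDKK3 against DD was 0.25 without DD 2, and that for DD + rDKK3 against WT was -0.14 without WT 2. At an unadjusted p under 0.05, 4 genes were lower and 0 higher in DD than in WT, where 3.99% of all genes were lower and 4.27% higher, 0 differed between DD + rDKK3 and DD (1.98% of all genes), and 5 were lower and 1 higher in DD + rDKK3 than in WT (8% and 7.34%). The smallest p for DD against WT was that of Defb1, an epithelial beta-defensin, at 695.7 and 696.5 CPM in WT, 425.1 and 345.7 in DD cultures and 462.1 and 242.5 in DD + rDKK3, a log2 fold change of -0.85 ± 0.30 (edgeR adjusted p = 0.586). The other 3 of the 4, named after their values were seen, were the collectin Sftpd (-1.14 ± 0.40), the ribonuclease angiogenin Ang (-0.48 ± 0.18) and Wfdc15b (-1.01 ± 0.38), each at an edgeR adjusted p of 0.586.

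Sftpd, surfactant protein D, had the smallest p of that list for DD + rDKK3 against WT. It measured 25.64 and 59.91 CPM in WT, 19.40 and 19.64 in DD cultures and 16.80 and 9.57 in DD + rDKK3, with a log2 fold change of -1.70 ± 0.41 (edgeR adjusted p = 0.321). Its WT libraries were far apart, and without WT 2 the value was -0.96. C4b, a complement component, had the smallest p between DD + rDKK3 and DD, at 0.65 ± 0.28 (edgeR adjusted p = 1), with 65.62 and 33.43 CPM in WT, 37.15 and 39.27 in DD cultures and 55.56 and 64.43 in DD + rDKK3. Its treated libraries lay above both DD libraries and inside the WT range. Unlike for Lcn2, both DD libraries lay inside the WT range as well.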

How the data were processed

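Bulk RNA-seq libraries of WT, DD and DD + rDKK3 acinar cultures (2 each) were grouped by their labels. The deposited values are raw counts of read pairs per gene, which the authors made with STAR 2.7.9a against GRCm39 and a basic GENCODE annotation, counting exonic alignments by strand in union mode and ignoring secondary alignments. R 4.2.2, DESeq2 1.38.0 and Picard 2.19.2 are also named in the submitters' processing notes. Reads placed on near-identical copies or overlapping genes could be lost or split by such counting, and gene-level counts do not show which exons were read. Reads carried no molecular identifiers, so intervals cover counting error only.

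After removal of 92 spike-in entries without counts, edgeR 4.0.16 (R 4.3.3) was used with filterByExpr (minimum count 10, total 15), TMM scaling and the quasi-likelihood F test over all 6 libraries with group as the only term (two-sided, Benjamini-Hochberg over 14738 genes, threshold 0.05, 3 residual degrees of freedom). Standard errors are those of this fit, and log2 CPM used a prior count of 2. DESeq2 1.42.0, limma 3.58.1 (voom), other scalings, no filter, a replicate block and leaving out each library were alternatives. Replicate libraries differed by more than sampling noise (chi-square per degree of freedom 22.96 to 65.68). Genes named by rule beyond the 10 are Dkk3, the most abundant gene of each of 6 marker lists, per pathway list and comparison the gene with the smallest unadjusted p, and the 3 closest profiles to the 2 genes with the largest DD against WT difference. Xist, Elane, Retnlg, Ltf, S100a8, Ly6g, S100a9, Csf3r, Ngp, Camp, Mpo, Lbp, Relb, Ang and Wfdc15b were named after their values were seen. The members and lists were chosen with earlier results of these data known. Motifs were searched in RefSeq promoter windows. The procedures were tested on simulated data.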

Additional observations from a re-analysis of the deposited data

How the results depend on the processing

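The median log2 fold change of the 10 genes stayed below 0 under every alternative for DD against WT (-0.93 to -0.52) and DD + rDKK3 against WT (-0.95 to -0.76). For DD + rDKK3 against DD it was -0.40 to 0.24 over the fits that left out a library, above 0 without DD replicate 2 (0.2391) and without DD + rDKK3 replicate 1 (0.0048). Without the low-count filter edgeR called 528, 73 and 788 genes (DD against WT, DD + rDKK3 against DD, DD + rDKK3 against WT), in place of 6, 0 and 7, and 6, 0 and 6 of the 10. DESeq2 called 80, 5 and 74 genes, and limma-voom called 3 in the last comparison. The causes were not tested. Leaving out each library gave 2 to 6 genes for DD against WT, 0 for DD + rDKK3 against DD and 2 to 9 for DD + rDKK3 against WT, where the lone library of a group is assumed to vary like the others.

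With the replicate number as a replicate block over all libraries edgeR called 7, 0 and 5 genes, and with the replicate block within the Dkk3-null libraries 194 genes for DD + rDKK3 against DD, 0 of the 10 among them, 1 of the Toll-like receptor list (Cd36, log2 fold change -0.69) and 2 of the secreted list (C4b with 0.64 among them). Same-numbered deviations had a correlation of 0.65 between DD and DD + rDKK3, -0.39 between WT and DD and -0.25 between WT and DD + rDKK3. The DD and DD + rDKK3 titles share a number, but no shared animal is named. The labelled ages of same-numbered libraries also differ (DD, 12 and 13 weeks, DD + rDKK3, 14 and 15 weeks). The numbers were therefore taken as numbers only. Scaling by library size alone put the median of all genes at 0.22 (DD against WT) and 0.18 (DD + rDKK3 against WT), in place of 0.016 and 0.017, and left the 8 members below 0 there. With 2 libraries a group and 36 to 99 counts, Tlr4 had the least depth of the 10.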
